A study of Mus musculus with 69 samples.

Results

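The H3K4me1 peak lists of Kmt2c-knockout and wild-type haematopoietic stem cells (HSCs) from untreated mice aged 8 weeks were compared region by region. The comparison used 2 of the 18 lists of the series and 6 of its 69 samples, and the 2 lists held 252592 of the 1506511 regions in all lists. A list holds the peaks of 3 libraries together, so no value exists for a single library and no test between genotypes was possible. The knockout libraries came from HSCs with the genotype Kmt2c f/f; Vav-Cre, in which the transgene deletes the conditional alleles in blood-forming cells, and the wild-type libraries from wild type HSCs. The labels do not say whether the 3 libraries of a group came from separate mice, how the HSCs were sorted, which sex the mice had, or whether the wild-type mice carried conditional alleles without Cre. Chromatin of sorted, fixed cells was precipitated with an H3K4me1 antibody and tagged with the Tn5 transposase (ChIPmentation). The 16 other lists served for comparison. At 8 weeks they give H3K4me1 in heterozygous HSCs and in haematopoietic progenitor cells (HPCs) of all genotypes, untreated. At 16 weeks they give H3K4me1 and H3K27ac in wild-type and knockout HSCs after PBS or 5-fluorouracil. The rest give H3K27ac in wild-type and knockout HPCs, aged 8 to 10 weeks, after PBS or IL-1.

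H3K4me1 is the methylation of lysine on the histone H3 tail that marks enhancers, the distal sequences that raise the transcription of genes nearby. It is placed mainly by the related enzymes MLL3, the product of Kmt2c, and MLL4, the product of Kmt2d, each within a complex that also holds the histone demethylase UTX (Kdm6a) and a core of subunits shared with other H3K4 methyltransferases. In HSCs, which renew the blood system, enhancers of this kind surround genes for stem cell transcription factors and, before they are used, genes of the lineages to come.

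The regions that differ lay mostly away from transcription start sites, and the few that held a start site can be read as sequence. A promoter was taken as 250 bases before to 50 bases after an annotated start, from RefSeq (GRCm38.p6). It lay wholly inside a region exclusive to the knockout list, with no base covered in the wild-type list, for 77 protein-coding genes, and in the reverse case for 20. Names that are only model identifiers are not counted. The knockout list had more exclusive regions, and like shares of both sets reached over a start site. These were 406 of 46601 (0.871%) in the knockout and 166 of 18115 (0.916%) in the wild type. The promoters inside the strongest such regions are shown, 2 for each direction, together with that of Vav1, whose regulatory sequence drives the Cre transgene. Each runs 5′ to 3′ on the gene's strand in lower case, with CpG dinucleotides in capitals.
Rbm47, chr5:66150929-66151228, minus strand, knockout only: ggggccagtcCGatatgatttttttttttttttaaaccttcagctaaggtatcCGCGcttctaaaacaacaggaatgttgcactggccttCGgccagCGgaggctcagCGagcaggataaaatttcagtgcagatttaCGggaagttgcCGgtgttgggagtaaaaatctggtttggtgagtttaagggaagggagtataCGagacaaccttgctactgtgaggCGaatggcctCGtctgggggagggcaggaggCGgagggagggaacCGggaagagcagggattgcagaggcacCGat
Acp7, chr7:28630864-28631163, minus strand, knockout only: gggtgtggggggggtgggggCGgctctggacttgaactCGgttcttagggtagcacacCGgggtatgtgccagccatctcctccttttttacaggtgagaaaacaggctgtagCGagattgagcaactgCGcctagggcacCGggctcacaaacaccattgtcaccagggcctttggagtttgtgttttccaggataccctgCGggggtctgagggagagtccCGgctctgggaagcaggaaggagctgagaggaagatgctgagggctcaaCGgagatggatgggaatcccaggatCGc
Serpinf1, chr11:75422574-75422873, minus strand, wild type only: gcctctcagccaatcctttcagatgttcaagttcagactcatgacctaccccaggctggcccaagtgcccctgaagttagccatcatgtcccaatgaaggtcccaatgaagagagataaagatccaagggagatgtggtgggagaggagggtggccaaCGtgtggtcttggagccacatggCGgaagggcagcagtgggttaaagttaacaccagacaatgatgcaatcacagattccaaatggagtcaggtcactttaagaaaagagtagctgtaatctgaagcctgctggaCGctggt
Asgr2, chr11:70092394-70092693, plus strand, wild type only: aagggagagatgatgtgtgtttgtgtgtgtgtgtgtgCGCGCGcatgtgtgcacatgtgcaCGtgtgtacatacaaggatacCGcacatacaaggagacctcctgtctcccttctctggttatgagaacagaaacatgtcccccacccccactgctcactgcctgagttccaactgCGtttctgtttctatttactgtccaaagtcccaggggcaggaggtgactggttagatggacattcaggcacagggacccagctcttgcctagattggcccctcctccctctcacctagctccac
Vav1, chr17:57278850-57279149, plus strand, 259 bases covered in the knockout list and 0 in the wild-type list: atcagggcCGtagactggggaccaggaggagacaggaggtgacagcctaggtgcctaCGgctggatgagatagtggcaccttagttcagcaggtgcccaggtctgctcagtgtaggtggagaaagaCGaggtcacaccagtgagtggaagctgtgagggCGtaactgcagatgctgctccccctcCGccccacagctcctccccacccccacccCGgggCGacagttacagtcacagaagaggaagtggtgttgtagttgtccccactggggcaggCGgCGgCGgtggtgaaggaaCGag

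Rbm47, which encodes an RNA-binding protein, had 14 CpG in its promoter, and the knockout region over it (66150061 to 66151409) had a −log10 p of 22.7 and was covered in 11 of the 16 other lists. Acp7, an acid phosphatase gene, had 10 CpG, and 3 other lists covered its region. The promoters found in the wild-type list alone held fewer, 3 at Serpinf1, which encodes a secreted serpin, and 6 at Asgr2, which encodes a subunit of the asialoglycoprotein receptor. Over all start sites the order was the reverse of that between these 4 genes. Of 32585 start sites, 1772 (5.44%) lay under a region in both lists, 1031 (3.16%) in the knockout list only and 488 (1.5%) in the wild-type list only. The median CpG count was 5 where both lists covered the start site, 6 in the knockout list only, 8 in the wild-type list only and 8 where neither did. A CpG ratio (observed over the number given by the C and G content) of 0.6 or more was found in 11.6%, 17.7%, 25.2% and 38.3% of these promoters. Promoters of start sites marked in both lists were thus the poorest in CpG.

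Short sequences bound by 3 families of blood transcription factors were counted in the same promoters, on both strands. TGTGGT, the core bound by RUNX factors, occurred in 21.7% (95% Wilson interval 19.9% to 23.7%) of promoters whose start was covered in both lists, in 18.9% (16.6% to 21.4%) for the knockout list only, in 18.4% (15.3% to 22.1%) for the wild-type list only and in 16.6% of all promoters. AGATAA, bound by GATA factors, occurred in 14.7%, 13.0% and 11.9%, beside 11.2% of all promoters. CCGGAA, bound by ETS factors, occurred in 8.63%, 7.66% and 10.0%, beside 15% of all. The intervals of the exclusive classes overlapped each other for all 3 sequences, so the promoters of neither list were set apart by them. A match is a count of letters and not of bound sites, and the intervals here and below cover counting error only.

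The knockout list was the larger. It held 134509 peaks over 113.5 Mb and the wild-type list 118083 peaks over 86.1 Mb, a difference of 16426 peaks (13.9% more) and 27.4 Mb (31.9% more). Peaks with a −log10 q of 5 or more numbered 83935 (62.4%) and 67417 (57.1%), and the highest −log10 p was 79.8 against 55.8. Knockout peaks were also wider, with a median of 554 bp against 499 bp, and 884 of them exceeded 5 kb against 399. The depth of the libraries is unknown, so a deeper or better enriched library and more marked chromatin cannot be told apart, and each difference below is a difference between lists.

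Genes that define HSCs were marked in both lists, as the label says. Within 10 kb of the gene, all 13 HSC markers had covered bases, from 4671 to 109139 in the wild-type list (median 15315) and from 4499 to 175379 in the knockout list (median 21694), while the median over all protein-coding genes was 1834 and 2848. Mecom, Meis1 and Mllt3, which sustain HSC self-renewal, stood highest in both. These sums were not divided by gene length, and a longer gene has a longer window. The part of gene length in this order, and in the contrast with all genes, was not tested. Of 8 mature lymphoid markers (T, NK and B cells), 4 were at 0 in the wild-type list and 1 in the knockout list, with medians of 1238 and 1547 bases. Of 7 granulocyte and monocyte markers, 4 and 3 were at 0, among them Ctsg, S100a9 and Ly6c2 in both lists. Others exceeded the HSC marker Hoxa9 (4671 and 4499 bases) in both lists: Elane (10757 and 11906), Csf1r (8710 and 8544) and the lymphoid marker Nkg7 (9416 and 10443). So did the erythroid and megakaryocyte markers Gp9 (9556 and 9466) and Pf4 (5120 and 9715), and the endothelial marker Kdr (7873 and 8073). Cd72 (5617) and Sftpc (5929), a marker of an unrelated tissue, exceeded it in the knockout list only. Medians were 2016.5 and 1962.5 bases for 6 stroma and endothelium markers, and 390.5 and 891 for 6 markers of unrelated tissues. Of 6 erythroid and megakaryocyte markers, 0 were at 0 in either list, with medians of 2478.5 and 2539 bases. Over all 21631 protein-coding genes, 5733 and 5231 were at 0. The share of other cells in the sort was not tested.

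Vav1, the source of the transgene's regulatory sequence, stood out in the knockout list, and the part of transgene copies in this was not tested. There, 3 knockout regions were among the strongest of the list: only 1 peak of the list had a higher −log10 p than the region from 57288723 to 57293162 in the gene, 2 had a higher one than the region from 57277984 to 57279108 over the start, and 9 than the region from 57276862 to 57277817 before it. In the wild-type list these stretches held 7 weaker regions. Of all wild-type peaks, 28.4% exceeded the region at 57277116 to 57277552, 56.1% the region at 57278076 to 57278425, and 8.08% the strongest of the 5 regions inside the gene stretch. Regions between these differed in rank to unequal degrees. The region from 57282169 to 57286649 was exceeded by 1.4% of knockout peaks and its wild-type counterpart by 3.14%, while the shares were 6.03% and 41.0% for the region from 57286795 to 57287539, and 2.17% and 73.3% for the region from 57287760 to 57288654. Coverage around Vav1 as a whole, 20356 bases in the wild-type list and 27518 in the knockout list, differed by the ratio of the median gene.

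Most of the smaller list was contained in the larger. Of wild-type regions, 84.1% (83.9% to 84.3%) overlapped a knockout region by at least 1 bp, and of knockout regions 64.2% (63.9% to 64.4%) overlapped a wild-type region. This left 18754 regions exclusive to the wild type and 48191 exclusive to the knockout. In bases, 72.6 Mb were covered in both lists, which is 84.4% of the wild-type list and 64.0% of the knockout list. Exclusive regions held less than the margins of shared ones: of the 40.9 Mb covered in the knockout list only, 54.1% lay beside bases covered in both lists, and of the 13.4 Mb in the wild-type list only, 56.9%.

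Exclusive regions were mostly weak and narrow. Their median −log10 p was 5.55 in the wild-type list and 6.42 in the knockout list, against 8.37 and 10.5 for shared regions, and their median widths were 274 and 336 bp against 573 and 800 bp. With each list ranked by strength and cut into 10 classes of like size, the exclusive share, from the weakest class to the strongest, fell from 36.2% to 0.136% in the wild type and from 69.4% to 0.662% in the knockout. The knockout share was the higher in all 10 classes.

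**Figure D1:**
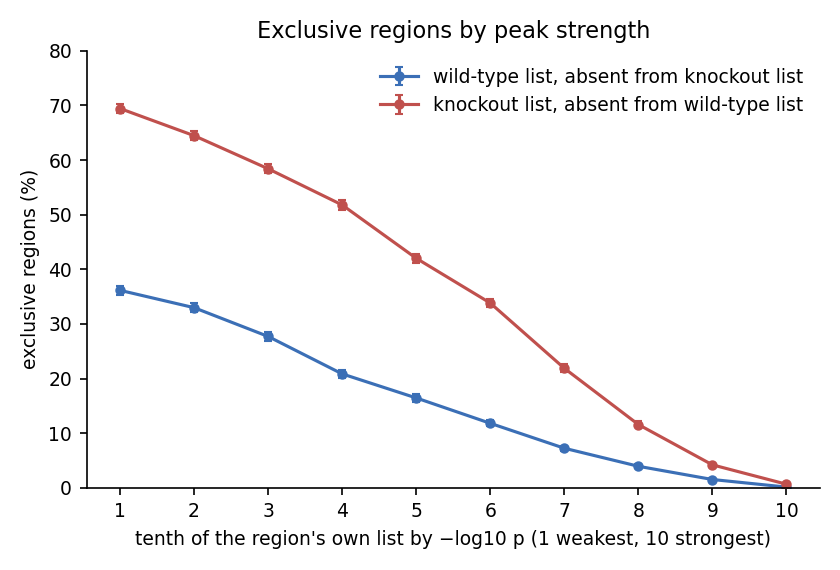
Share of regions without overlap in the other list (vertical axis, percent, with 95% Wilson intervals) in 10 classes of a list ranked by −log10 p (horizontal axis, 1 weakest). The knockout points run from 69.4% to 0.662% and the wild-type points from 36.2% to 0.136%, with the knockout line above the wild-type line throughout.

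A region was called strong when its −log10 p was in the top 25% of its own list. Exclusive regions of any strength numbered 18754 in the wild type and 48191 in the knockout, of which 2.12% and 2.76% were strong. These strong ones numbered 398 and 1329, so 77.0% (74.9% to 78.9%) of strong exclusive regions lay in the knockout list. The cause of this split was not tested: it was 58.5% when both lists held as many peaks and turned to 8.80% when both covered as many bases, a limit that removes only weak knockout peaks and so leaves wild-type regions without partners. Many strong exclusive regions sat next to a region of the other list. Within 500 bp lay 59.3% of those of the wild type and 46.8% of those of the knockout, and over 10 kb away lay 31 (7.79%) and 169 (12.7%).

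Regions that matched one to one showed the wider peaks without any exclusive region. For 49047 such regions the median log2 width ratio of knockout over wild type was 0.25, with quartiles of −0.06 and 0.73. The knockout region was the wider in 70.1% of them, it contained the whole wild-type region in 39.3%, and the reverse held in 12%. Their median widths were 708 and 540 bp, and the summits lay a median of 151 bp apart. Merging accompanied the widening: 20091 knockout regions spanned 2 or more wild-type regions, while 11634 wild-type regions spanned 2 or more knockout regions, and 5 or more were spanned by 214 and 4.

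**Figure D2:**
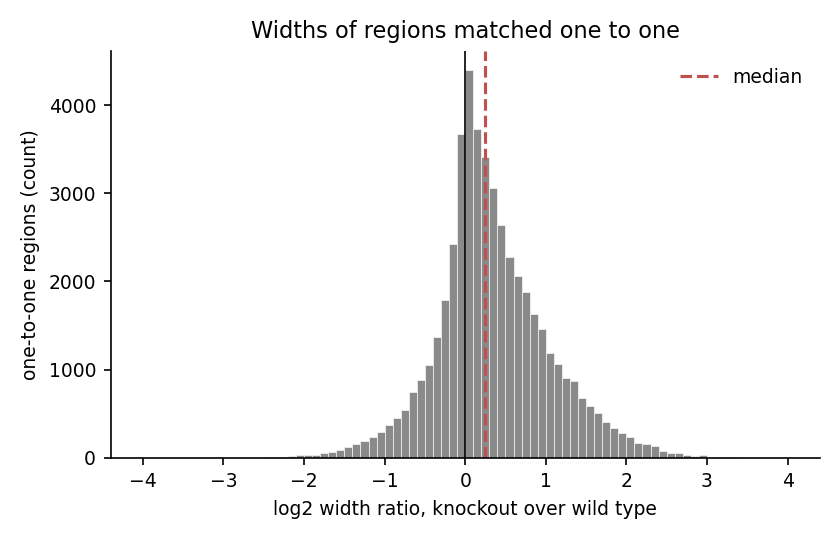
Distribution of the log2 width ratio (horizontal axis, knockout over wild type) over 49047 regions that overlap exactly 1 region of the other list, as counts of regions (vertical axis). The solid line marks equal width and the dashed line the median of 0.25, and the right side is the heavier.

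The widest regions of the knockout list often joined several wild-type regions. The widest knockout region, 22534 bp at Etv6, a transcription factor gene needed by adult HSCs (chromosome 6, 134041192 to 134063725), covered 6 wild-type regions of which the widest had 5421 bp. At Map3k14, the kinase of non-canonical NF-kB signalling, 1 knockout region of 18945 bp also covered 6 wild-type regions. At Notch2 and Nfix, widths were 18203 and 17512 bp against 9141 and 9072 bp for the widest wild-type region within. Wide regions were also found in the wild type. At Ptpre, a phosphatase gene, the knockout region of 18931 bp met 3 wild-type regions, of which the widest had 14901 bp. The widest wild-type region, 16825 bp at Akt2, met 3 knockout regions of which the widest had 14811 bp. The wild-type regions of 14568 bp at Celf2 and 12624 bp at Egfl7 each met 1 knockout region, and that of 12941 bp at Zmiz1 met 2.

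The 8 strongest regions exclusive to the wild type with a named gene within 50 kb all had a knockout neighbour close by. At Stx6, a syntaxin gene of Golgi transport, the region at chromosome 1, 155175003 to 155175485 had a −log10 p of 20.2 and ended 77 bp from a knockout region. At Gabbr2, a GABA receptor subunit gene, the region had 18.6 and lay 277 bp away, and at Ccdc69 the region had 16.9 and lay 46 bp away, although 15 of the 16 other lists covered it. The same distance was 5 bp at Lemd1, 210 bp at Marchf10, 180 bp at Mdga2, 472 bp at Mmp28 and 37 bp at Msrb2. Whether peak edges differed at these 8 places, or a separate peak was absent, was not tested.

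The strongest regions exclusive to the knockout included some that stood alone. At Zfhx3, a homeobox factor gene, the region at chromosome 8, 108737139 to 108737386 had a −log10 p of 27.3 and lay 138 bp from a wild-type region. The regions at Sem1, a proteasome subunit gene, and at Rbm47 lay 484 and 10 bp away. At Ehd4, a gene of endocytic recycling, a region of 2032 bp lay 4871 bp from the wild-type list, and those nearest to Psme2b and Ing1 lay 4292 and 3539 bp from it.
The region in Xrcc2, a gene of homologous recombination (chromosome 5, 25704621 to 25705356, −log10 p of 23.9), had no wild-type region within 131879 bp. All 16 other lists of the series covered it. It lay in a stretch of 306 kb, beginning beyond the neighbouring gene Kmt2c, that held 7 knockout regions and no wild-type region. At Med30, a Mediator subunit gene (chromosome 15, 52713031 to 52714151), the stretch without a wild-type region was 877 kb, with 3 knockout regions in it, and 14 other lists covered the region named. In the opposite direction the strongest region over 10 kb from the other list lay near Pth, the parathyroid hormone gene (chromosome 7, 113435662 to 113437147, −log10 p of 14.7), and 7 other lists covered it. Med30 and Pth were named after their values were seen.

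Strong regions missing from 1 list were mostly present elsewhere in the series, but less often than strong shared regions, and weaker ones less so. The 16 other lists share no library with the 2 compared. Of the strong regions exclusive to the knockout, 83.0% (80.9% to 84.9%) were covered in at least 1 of the 2 wild-type HSC H3K4me1 lists taken at 16 weeks, after PBS or 5-fluorouracil, and 51.3% (48.6% to 54.0%) in at least 1 of the 2 knockout lists of that age. Of the strong regions exclusive to the wild type, the shares were 79.1% (74.9% to 82.8%) and 34.4% (29.9% to 39.2%). For strong shared regions they were 99.2% and 92.5% by knockout regions, and 99.2% and 92.0% by wild-type regions. Nearly all of the wild-type cover came from the 5-fluorouracil list, which pools 6 libraries and is the largest of the 4. Of the strong exclusive regions, 3.01% (2.22% to 4.07%) in the knockout and 4.77% (3.08% to 7.34%) in the wild type were in no other list. Among strong shared regions this held for 0.0276% and 0.0378%. Over exclusive regions of any strength, 52.7% of the knockout and 52.1% of the wild-type ones were covered in a wild-type HSC list of that age, and 20.5% (20.1% to 20.9%) and 19.2% (18.7% to 19.8%) were in no other list.

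The pairs of lists with the same genotypes gave a less uneven picture. Of strong knockout-exclusive regions covered in just 1 list of the 16-week PBS pair, 180 were in the knockout list and 200 in the wild-type list, 47.4% (42.4% to 52.4%) in the knockout. Of strong wild-type-exclusive regions, 40 were in the knockout list and 82 in the wild-type list, 32.8% (25.1% to 41.5%). For strong regions shared at 8 weeks the figure was 32.0% (30.6% to 33.4%) by knockout regions, so the knockout-exclusive ones leaned to the knockout more than shared regions did, while the wild-type-exclusive ones, beside 28.4% (27% to 29.9%) for shared wild-type regions, did not lean further to the wild type. In haematopoietic progenitor cells (HPCs) at 8 weeks, the figures were 57.9% (52.5% to 63.2%) for knockout-exclusive, with 53.9% (51.6% to 56.1%) for shared knockout regions, and 36.1% (27.2% to 46.0%) for wild-type-exclusive, with 47.8% (45.2% to 50.3%) for shared wild-type regions. The H3K27ac lists covered strong exclusive regions of the 2 genotypes in like shares, 43.5% (38.7% to 48.4%) for the wild type and 41.1% (38.5% to 43.8%) for the knockout in at least 1 list, against 78.4% and 77.5% of strong shared regions.

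Over all strengths, exclusive regions lay near a start site less often than shared ones. A start site lay within 1 kb of 10.5% (10.1% to 11%) of wild-type-exclusive and 14.1% (13.9% to 14.3%) of shared wild-type regions, and of 9.86% (9.59% to 10.1%) of knockout-exclusive and 16.3% (16.0% to 16.5%) of shared knockout regions. Start sites of chromosome 18 are not in the table used here. Among strong regions the shares within 1 kb were 16.2% (12.8% to 20.1%) and 16.0% (15.6% to 16.4%) in the wild type, and 16.6% (14.7% to 18.7%) and 19.3% (18.9% to 19.7%) in the knockout. The region itself reached over a start site in 2 of 390 (0.513%) wild-type-exclusive and 15 of 1288 (1.16%) knockout-exclusive ones, against 3.14% and 3.65% of strong shared ones, a measure that also depends on width, and exclusive regions were narrower. In the same strong regions, an end of a gene lay within 1 kb of 15.3% (12.1% to 19.2%) of the wild-type-exclusive, 17.2% (15.3% to 19.4%) of the knockout-exclusive, and 15.5% and 18.8% of the shared ones, so in distance to a gene end the strong classes did not differ beyond counting error. Knockout-exclusive regions fell inside genes as often as shared ones, 67.3% against 67.9%, and wild-type-exclusive regions less often, 61.9% (61.2% to 62.6%) against 68.8% (68.6% to 69.1%).

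The X chromosome stood apart from the autosomes. On the 19 autosomes 13.9% to 17.8% of wild-type and 33.1% to 38.7% of knockout regions were exclusive, and the knockout list had 1.1 to 1.16 times as many regions. On X, with 611 wild-type and 956 knockout regions, 43.5% (39.7% to 47.5%) and 65.0% (61.9% to 67.9%) were exclusive and the ratio was 1.56. Neither list had a peak on Y. X held 0.517% of wild-type and 0.711% of knockout peaks, and between 0.0734% and 0.745% in the other H3K4me1 lists. X regions were also narrower, with median widths of 324 bp in the wild type and 368.5 bp in the knockout, against 499 and 554 bp over the whole lists. The highest −log10 p on X was 14.0 in the wild type and 38.7 in the knockout. Sex is not in the labels, and neither its part nor that of width and strength in this difference was tested.

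Covered bases were summed for 21631 protein-coding genes, from 50 kb below to 50 kb above the gene, and the log2 ratio of knockout over wild type was taken after adding 1000 bases to both. Of these genes 17168 had at least 1000 covered bases in either list. Their median log2 ratio was 0.39 (1.31-fold), 95.7% had more bases in the knockout list, and 25.2% had 1.5-fold or more against 0.099% with 1.5-fold or more fewer. The median was therefore subtracted to give a relative log2 ratio, in which 834 genes (4.86%) lay 1.5-fold or more above the median gene and 174 (1.01%) as far below. Subtraction moved the share of calls that were higher from 99.6% to 82.7%. Most of these genes had little coverage, with 65.5% of those above and 85.1% of those below under a mean of 5000 bases, and with 5000 bases added in place of 1000 the counts were 53 and 6. With lists of equal covered bases the split turned, with 483 genes above and 890 below.

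**Figure D3:**
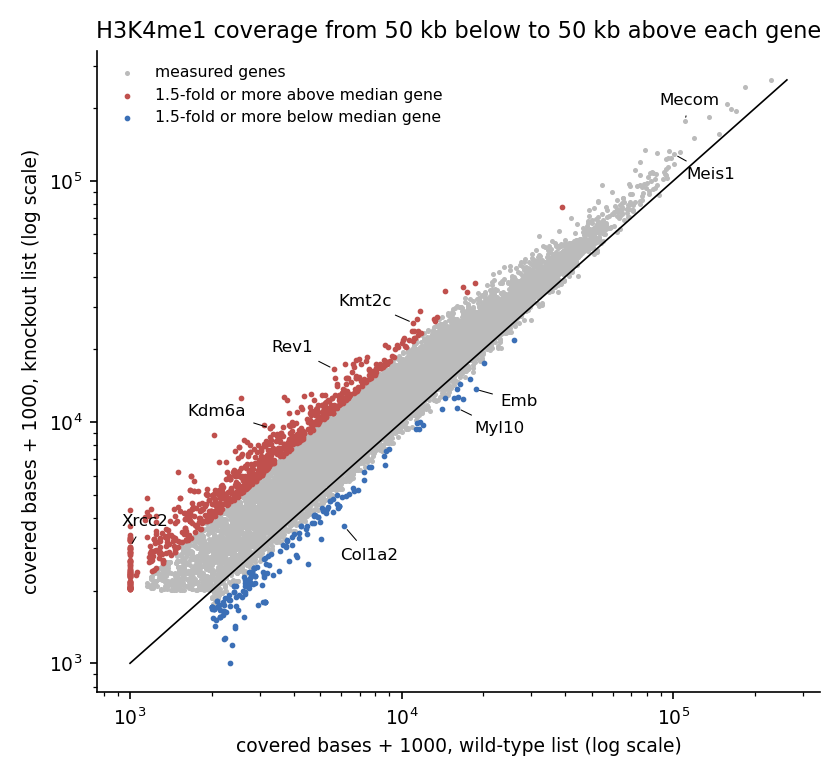
Covered bases plus 1000 around each of 17168 measured genes in the wild-type list (horizontal, log scale) and the knockout list (vertical, log scale). Red and blue points lie 1.5-fold or more above (834) and below (174) the median gene, the line marks equal coverage, and Mecom and Meis1 stand at the upper end of both lists.

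Genes with the largest relative gain were not typical HSC genes. Among genes with a mean of at least 10000 bases, Rev1, a polymerase that copies past DNA lesions, had 4621 bases in the wild-type list and 15595 in the knockout list, a relative log2 ratio of 1.17. Snx25, a sorting nexin gene, went from 5194 to 16383 bases (1.1), and Stag1, a cohesin subunit gene, from 5783 to 17014 (1.02). Amigo1, Wac and Abhd3 had ratios of 1.01, 0.99 and 0.93. With lists of equal covered bases Stag1 (0.45) and Wac (0.36) no longer reached 1.5-fold. These genes gained separate regions as well as width: the window of Rev1 held 9 wild-type and 21 knockout regions, of which 15 were exclusive.

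Genes with the largest relative loss had fewer covered bases in the knockout list outright. Myl10, a myosin light chain gene, had 15012 bases in the wild-type list and 10419 in the knockout list, a relative log2 ratio of −0.88, and 9 of its 19 wild-type regions were exclusive. Emb, which encodes the adhesion protein embigin, had 17712 and 12667 (−0.84), with 10 of 28 regions exclusive and no knockout-exclusive region. Rgs7bp, which encodes an anchor of G protein regulators, had 15875 and 11478 (−0.82). The ratios were −0.72 at St6galnac5, a sialyltransferase gene, −0.70 at Nt5el and −0.70 at Rasl10b, and within 10 kb of the gene Nt5el had −0.17. The list of heterozygous HSCs of the same age, Kmt2c f/+; Vav-Cre, covered 16447 bases at Myl10, 17612 at Emb and 14919 at Rgs7bp, nearer to the wild-type than to the knockout values.

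The losses were looked up in libraries not used to find them. With the same rule, 12 genes with a mean of at least 10000 bases lay 1.5-fold or more below the median gene, in 8 separate windows, since Rgs7bp and Nt5el, Rasl10b and Gas2l2, and Plscr1, Plscr2 and 1700057G04Rik are neighbours. Against the median of genes with this coverage, in place of that of all measured genes, 7 were as far below. In the HSC lists of PBS-treated mice aged 16 weeks, all 12 lay below the median gene and 7 (58.3%) were 1.5-fold or more below it, beside 3.34% of all 8395 genes with this coverage. Emb had 10820 bases in the wild-type and 3944 in the knockout list there (−1.08), Rgs7bp 4540 and 888 (−1.38), and Nt5el 6645 and 1829 (−1.26). Arhgap15, which encodes an inhibitor of Rac signalling, had 24873 and 20872 bases at 8 weeks (−0.63) and 12761 and 3972 at 16 weeks (−1.29). Pcdh7, a protocadherin gene, had 13465 and 11612 (−0.59), then 10986 and 2600 (−1.56). Gas2l2, Plscr1, Plscr2, 1700057G04Rik, Arhgap15 and Pcdh7 were named after their values were seen.
In HPCs at 8 weeks, 10 of the 12 lay below the median gene and 3 (25%) by 1.5-fold or more, beside 0.322% of all. Those 3 were the neighbours Plscr2 (−0.91), Plscr1 (−0.84) and 1700057G04Rik (−0.71), at the genes of 2 phospholipid scramblases. Arhgap15 (0.01) and Emb (−0.02) were at the median gene in HPCs.

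The gains were looked up in the same libraries, and whether they recurred more or less than the losses was not tested. Of the 834 genes above, 496 were measured at 16 weeks, and 17.7% of these were again 1.5-fold or more above, beside 3.83% of all genes. The opposite call was also more frequent among them, with 8.27% as far below, beside 5.47%. Of the 174 genes below, 72 were measured, of which 23.6% were again below and 6.94% above. In HPCs, 742 of the genes above were measured, of which 55 were again above and 49 below. Among all 16653 genes measured there, these counts were 308 and 384. Of the genes below, 137 were measured in HPCs, of which 20 were again below and 3 above. Of the 79 genes above with a mean of at least 10000 bases, 45 (57.0%) lay above the median gene at 16 weeks and 11 (13.9%) by 1.5-fold or more, beside 49.1% and 0.989% of all genes with this coverage. In HPCs the counts were 60 (75.9%) and 6 (7.59%), beside 50.7% and 0.334%. Rev1 had −0.06 at 16 weeks and 0.52 in HPCs, Snx25 −0.13 and 0.31, and Stag1 −0.04 and −0.18. None of the 6 genes with the largest gain reached 1.5-fold in either pair.

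**Figure D4:**
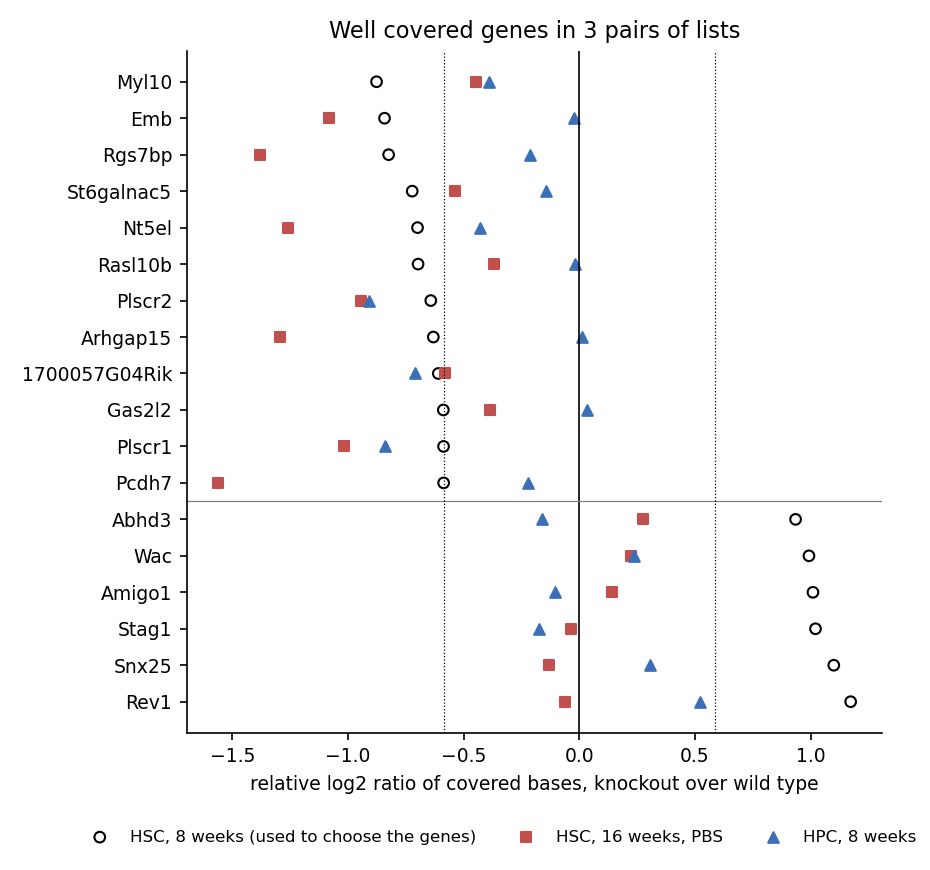
Relative log2 ratio (horizontal axis, knockout over wild type) of the 12 well covered genes below and the 6 with the largest gain (rows) in 3 pairs of lists that share no library. Open circles chose the genes. All 12 squares of the 16-week pair in the upper block lie left of 0, while in the lower block 3 of 6 do, and the dotted lines mark 1.5-fold.

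The genes with the most exclusive regions in their windows held a small part of all such regions. Their windows held many regions of any kind, and over the whole lists 35.8% of knockout and 15.9% of wild-type regions were exclusive. Foxp1, a forkhead factor gene, held 91 exclusive regions among 224 of the knockout and 30 among 181 of the wild type. Its coverage of 134587 and 183310 bases gave a relative log2 ratio of 0.05. Mecom, which is required for HSC self-renewal, held 88 of 190 and 25 of 167, with 109139 and 175379 bases (0.29). Csgalnact1, an enzyme of chondroitin sulphate synthesis, held 73 of 126 and 5 of 67 with 0.43. Arid1b, a subunit of a chromatin remodeller, held 65 of 193 and 10 of 176 with 0.02. Foxn3, another forkhead gene, held 54 of 145 and 32 of 136 (−0.02). Pde4d, a cyclic AMP phosphodiesterase gene, held 29 of 124 and 30 of 122 and lay below the median gene with −0.41.

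The targeted gene lay above the median gene, and its partners lay on both sides. Kmt2c (gene 231051, chromosome 5, 25271795 to 25498855) had 24 wild-type and 38 knockout regions, of which 22 were exclusive, and it had 10024 and 24742 bases, a relative log2 ratio of 0.83, which was 0.54 with lists of equal covered bases. Near its upper end, a knockout region of 2776 bp (25492624 to 25495399) with a −log10 p of 24.2 met wild-type regions of 1415 and 191 bp with 5.77 and 5.55. A peak list does not show whether exons were deleted. The relative ratio of Kmt2c was also positive in the 16-week pair (0.71) and in HPCs (0.35).
Kdm6a, the X-linked gene of the demethylase UTX, had 2286 and 8425 bases (1.13), but its ratio was −1.51 at 16 weeks and −0.94 in HPCs. Kmt2d, which encodes the related enzyme MLL4, had 19890 and 20527 (−0.35). Of the 10 genes of the MLL3 and MLL4 complexes, 2 (Kmt2c and Kdm6a) lay 1.5-fold or more above, beside 4.86% of all genes and 27.3% of X-linked genes, and none below, with a median of 0.28. That median was also 0.28 in the 16-week pair and 0.02 in HPCs. Among 18 genes of other H3K4 and enhancer enzymes the median was 0.08, and 2 were 1.5-fold or more above: Ezh2 (5303 and 14213 bases, 0.88) and Eed (2880 and 7036, 0.66), both subunits of the Polycomb enzyme that methylates H3K27. At 16 weeks these had −0.32 and −0.39.

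HSC transcription factor genes had more covered bases in the knockout list at all 20 measured members, and yet gained less than the median gene. Their median relative log2 ratio was −0.08, and 1 of 20 was 1.5-fold or more above and 0 below, beside 4.86% and 1.01% of all genes. That member was Mycn, with 1651 and 4955 bases. Meis1 had 99547 and 127885 bases (−0.03), Runx1 96922 and 123017 (−0.05), Hlf 41665 and 46350 (−0.24) and Fli1 85699 and 94856 (−0.24). Genes of HSC surface and signalling had a median of −0.09, with none of 20 past 1.5-fold. Mllt3 stood highest among them with 77826 and 132825 bases (0.38), followed by Fgd5 (0.36), and Kit, the receptor of stem cell factor, had 44247 and 56365 (−0.05).

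Most granulocyte, monocyte, megakaryocyte and erythroid genes lay below the median gene, and some above it. Over 19 measured granulocyte and monocyte genes the median was −0.21, with 13 below the median gene and none past 1.5-fold. Mpo, the myeloperoxidase gene, had 14276 and 14167 bases (−0.40), Itgam 13426 and 12694 (−0.46), which were the lowest ratios. The highest were those of Fcgr3, an antibody receptor gene, with 2601 and 5407 bases (0.44), and S100a8, a calcium-binding protein gene, with 295 and 1022 (0.25). The master regulators Spi1 and Cebpa had −0.21 and 0.05. The megakaryocyte and erythroid list had −0.16 over 15, with 13 below the median gene, among them Gp9 (−0.33), and with Pf4 (0.22) and Epor (0.13) above it. The early lymphoid list had −0.03 over 20. None of these medians passed 1.5-fold, and that of the granulocyte and monocyte list was −0.06 in the 16-week pair and 0.07 in HPCs.

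Stress and cycle genes lay close to the median gene. Medians were −0.13 for 27 interferon response genes, −0.05 for 20 NF-kB and IL-1 genes, −0.09 for 18 quiescence and immediate early genes and −0.06 for 22 cell cycle genes. Of these 87 genes 1 passed 1.5-fold, Il1b, the gene of the cytokine interleukin-1 beta, with 3169 and 7479 bases (0.64). Its ratio was 0.96 in the 16-week pair and 0.37 in HPCs. Cdkn1a, the cell cycle inhibitor p21, had 21131 and 23194 bases (−0.26).
The Hox list had a median of 0.15, with 16 of 20 genes above the median gene, but their windows overlap. Hoxa10 had 18971 and 30094 bases (0.25) and Hoxa13 15439 and 18238 (−0.16), and Hoxb genes lay between −0.08 and 0.17. In the 16-week pair the list median was 0.10, and in HPCs −0.15.

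Lists of marker genes of other cells and tissues, and of housekeeping genes, gave medians to set beside these. Stroma and endothelium markers had −0.28 over 11 genes, with Col1a2 below (5155 and 2691 bases, −1.13) and Kitl above (651 and 2393, 0.65). Mature lymphoid markers had 0.02 over 12, with Cd8a (0 and 1400 bases) and Gzmb (279 and 1737) above. Silent tissue genes had −0.02 over 15 and housekeeping genes −0.05 over 20, with none past 1.5-fold in either. The medians of the HSC and blood lineage lists, from −0.21 to −0.03, lay within the range of these lists.

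**Figure D5:**
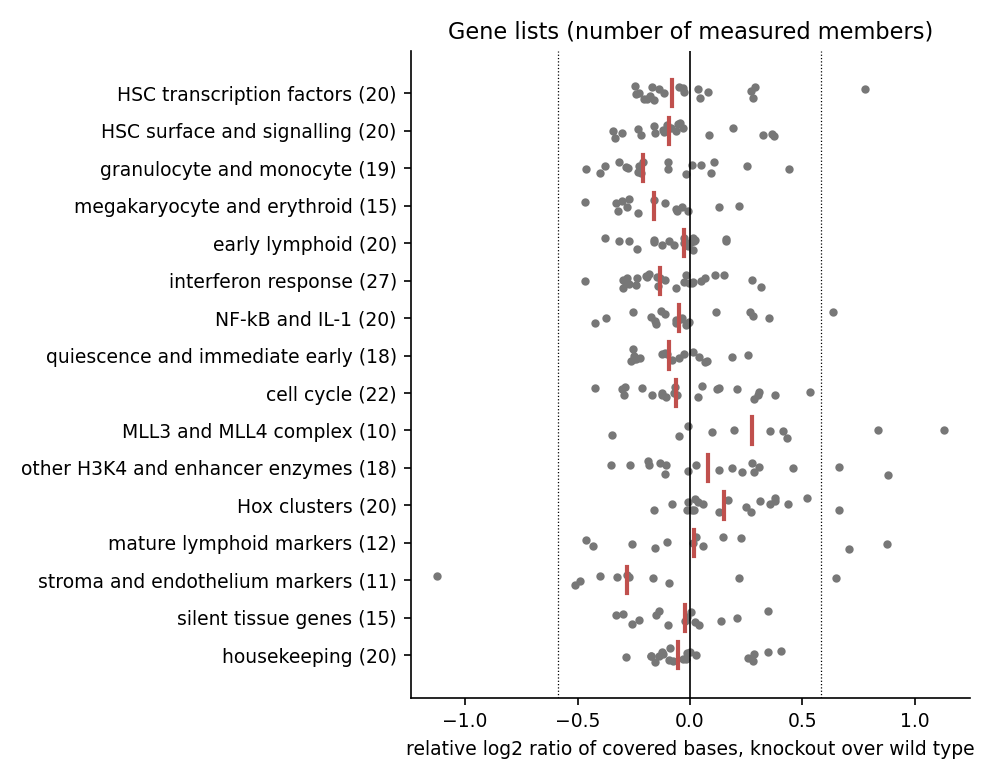
Relative log2 ratio (horizontal axis, knockout over wild type) of each measured member (points) of 16 gene lists, with the list median as a red bar, the median gene at 0 and 1.5-fold as dotted lines. List medians run from −0.28 (stroma and endothelium) to 0.28 (MLL3 and MLL4 complex), and none reaches 1.5-fold.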

How the data were processed

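Each group had 1 peak list, pooled by the authors over its libraries. The submitters' processing notes name Novoalign, MACS2 and mm10 (GRCm38). The sources used here do not state versions, the filter, or how libraries were combined. Used from the deposited files were peak positions, the fold enrichment (a ratio), the −log10 p and the −log10 q. These values are the authors', one per peak, and ranked or filtered peaks inside 1 list only. Peak ranks show that the filter left 52.1% of wild-type and 55.8% of knockout ranks. Depth is unknown.

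No 2 peaks of a list overlapped or touched, so each peak is a region. Overlaps, covered bases and Wilson 95% intervals were computed with Python 3.11.15, numpy 2.4.6, pandas 2.3.3 and scipy 1.17.1, and the functions were tested on simulated lists. Genes came from RefSeq (GRCm38.p6). The members and gene lists were chosen with earlier results of these data known. Named genes are the 8 nearest to the strongest exclusive regions and the 6 with the largest ratios at a mean of at least 10000 bases in each direction, the 4 with most exclusive regions, up to 3 members per list and direction past 1.5-fold, and 12 reference genes; some genes that this rule names are not reported here. Other genes named were chosen after their values were seen. These are genes at promoters, widest regions and cell type markers, and Runx1, Fli1, Fgd5, Mpo, Itgam, Fcgr3, S100a8, Pf4, Epor, Gp9, Hoxa10 and Hoxa13. With 1 list per group there is no test and no p-value between genotypes.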

Additional observations from a re-analysis of the deposited data

Results flagged for a closer look

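The direction of the size difference was not the same in the 2 pairs of HSC H3K4me1 lists without drug treatment. At 8 weeks the knockout list exceeded the wild-type list by 16426 peaks and 27.43 Mb, and in PBS-treated mice at 16 weeks the difference, knockout minus wild type, was −5860 peaks and −9.79 Mb. The difference between these pairs was not tested. The 16-week lists came from 4 wild-type and 3 knockout libraries, and 1.01% and 1.04% of their peaks had a −log10 q of 5 or more, against 57.1% and 62.4% at 8 weeks.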

How the results depend on the processing

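Alternatives restricted to autosomes, without subtraction of the median, or to genes with a mean of 10000 bases were chosen after seeing the data. No paired analysis was possible because each list pools its libraries. Leaving out a library was not possible for the same reason. Against 84.1% and 64.2%, the shares of wild-type and knockout regions overlapped were 79.6% and 59.6% with an overlap of 50% of the shorter region, 85.3% and 61.4% at −log10 q of 5 or more, 80.8% and 68.7% with equal numbers of peaks, 65.2% and 84.6% with equal covered bases (70737 knockout peaks left), and 83.1% and 67.3% with peaks merged within 500 bp. Covered bases in both lists, 57.2% of the union, were 55.2% at −log10 q of 5 or more, 58.2% with equal numbers, 58.7% with equal bases and 57.4% on autosomes. The share of strong exclusive regions in the knockout, 77.0%, was 73.1% with the 50% overlap, 83.2% at −log10 q of 5 or more, 58.5% with equal numbers and reversed to 8.80% with equal bases. The share of knockout-exclusive strong regions near a gene end, 17.2%, was 20.7% at −log10 q of 5 or more, 20.5% with equal bases and 15.1% with strength by fold enrichment; that of the wild type stayed within its interval. The median log2 width ratio lay between 0.21 and 0.27. Genes above and below numbered 981 and 298 with a 10 kb window, 53 and 6 with 5000 added bases, 483 and 890 with equal bases, 4321 and 17 without subtraction, and 117 and 7 among genes with a mean of 10000 bases, taken against their own median (79 and 12 against the median of all measured genes). Of 96 gene list medians 1 crossed 1.5-fold, that of the MLL3 and MLL4 complex without subtraction (0.66), and of 308 values of named genes 42 crossed it. Where no construction is named, the cause was not tested.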

Other observations

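Ubiquitously marked places were seldom missing from either list. Regions covered in at least 15 of the 16 other lists numbered 257 among those exclusive to the knockout and 69 among those exclusive to the wild type, which is 0.533% and 0.368% of each class. Strong regions of this kind numbered 50 (3.76% of strong exclusive ones) in the knockout and 9 (2.26%) in the wild type. Among strong shared regions the shares were 34.9% and 34.5%.

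The strongest peak of both lists lay at the same place in Hjurp, the gene of a centromere chaperone, at chromosome 1, 88274655 to 88277114 in the wild type (−log10 p of 55.8) and 88274647 to 88277139 in the knockout (79.8). In the knockout it was the only peak above the strongest Vav1 region. Next in rank stood Tbxas1, the thromboxane synthase gene (43.1), and Hdac7, a histone deacetylase gene (42.6), in the wild type, and Birc3, an inhibitor of cell death (51.8), and Aff3 (51.2) in the knockout. Hjurp, Tbxas1, Hdac7, Birc3 and Aff3 were named after their values were seen.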
